A study of Mus musculus with 43 samples.

Results

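Poly-N-acetyllactosamine (poly-LacNAc) extension was followed through 80 of the 10640 sgRNAs of a metabolic CRISPR library, 5 for each of 16 of its 2078 genes. The members were taken by symbol alone: the 8 genes whose symbol begins with *B3gnt*, the 6 genes *B4galt1* to *B4galt6*, and the transporter genes *Slc35a2* and *Slc35a3*. The family was singled out because the sgRNAs against *B3gnt2* were already known to be enriched against the transferred cells in these data, so the values of *B3gnt2* against T0 are given as a description, with no test. The symbols of the other 15 genes use no measured value.

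LacNAc is a disaccharide of galactose and N-acetylglucosamine (GlcNAc) at the ends of N-glycans, O-glycans and glycolipids, and in poly-LacNAc it is repeated. The chain grows in the Golgi as a β1,3-N-acetylglucosaminyltransferase (B3GNT) and a β1,4-galactosyltransferase (B4GALT) act in turn, with UDP-GlcNAc and UDP-galactose carried into the Golgi by SLC35A3 and SLC35A2. B3GNT2 is the main poly-LacNAc synthase of many cell types, and on T cells such chains are ligands of galectins and coat receptors of activation and costimulation.

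The sequences of the sgRNAs that were measured were not used here. The same study later built a single-cell library against the genes it had found enriched in these data, *B3gnt2* and *B3gnt4* among them. To show where in these genes it aimed Cas9, the sgRNAs designed against *B3gnt2* and *B3gnt4* for that library are printed, 3 for each gene. They are not the sgRNAs whose values follow. Each is written 5′ to 3′, with the 12 bases next to the PAM in capitals, the stretch where Cas9 tolerates mismatches least.
B3gnt2 guide 1: tggggccgAGAAACCAACGT
B3gnt2 guide 2: acagggtgGCCAATCAGACA
B3gnt2 guide 3: caaacttaAGCATGTCCGAA
B3gnt4 guide 1: agtgtcgaTAGGTTAAGAAG
B3gnt4 guide 2: agtttgatGACATCTTACAG
B3gnt4 guide 3: ccggccccAAGTGCTTCGAA
Each of the 6 had 1 exact match followed by an NGG PAM on the chromosomes of GRCm38.p6, and each match lay in a coding exon of the named gene. In *B3gnt2*, on the minus strand, the matches were chr11:22836675-22836694 and chr11:22836944-22836963 on the minus strand and chr11:22836586-22836605 on the plus strand. In *B3gnt4*, on the plus strand, they were chr5:123510780-123510799 and chr5:123510905-123510924 on the minus strand for guides 1 and 3, and chr5:123511025-123511044 on the plus strand for guide 2.

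The screen asked which metabolic genes set the abundance of CD8+ T cells in a mouse model of pancreatic ductal adenocarcinoma. The integrated sgRNA was sequenced from the genomic DNA of sorted OT-I T cells. OT-I cells carry a T cell receptor against ovalbumin, here with a Cas9 knock-in, and were sorted as CD90.1+, the marker of cells that took up the lentiviral library. All cells shared this genotype. T0 (3 libraries) was the in vitro culture on the day of transfer. All other libraries came from cells sorted 7 days after transfer into mice with orthotopic KPC_OVA tumours, a pancreatic cancer line that expresses ovalbumin, treated with anti-PD-1 or with IgG. Primary tumour, spleen, lung, draining lymph nodes and nondraining lymph nodes had 3 libraries under each treatment. Liver had 2 libraries under IgG and 1 under anti-PD-1, and peritoneal metastases had 2 under IgG and 3 under anti-PD-1. Thus 41 of the 43 samples had values, and the authors had excluded the other 2. Replicate 2 of peritoneal metastases under anti-PD-1 is titled as such but carries spleen as its tissue label. It was kept under its title. The age of the mice, and which mice stand behind a library, are not given in the labels. The study collected these organs from the mice when they were killed, and sequenced the samples in 3 independent runs. Which mice or which run a replicate number stands for is not stated. The cells carry an antigen receptor against a tumour antigen chosen by the experimenter, and the data hold no expression values, so that neither the cell type nor the loss of a target could be checked against markers.

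The level of a gene is the mean of log2(signal + 1) over its 5 sgRNAs minus the same mean over the 250 nontargeting sgRNAs of the library, and a change is the difference of such levels. A level of 0 is that of the nontargeting sgRNAs. The signal stands for the relative number of cells that carry an sgRNA, so that division, survival and arrival in an organ cannot be told apart. Summed signal ranged from 2882462 to 4228882 in T0 and from 1788300 to 3590597 in the 26 libraries of primary tumour, spleen, lung, liver and peritoneal metastases, and the read depth is unknown. The spread between libraries of a group (root mean square SD over genes) was 0.23 in T0, 0.47 in primary tumour, 0.86 in spleen, 0.75 in liver, 0.78 in peritoneal metastases and 1.19 in lung. One spread per gene is shared by all these groups in the fit, which makes the p-values of lung too small and those of primary tumour too large.

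Outside the lymph nodes, the sgRNAs against *B3gnt2* stood above every T0 library in 25 of 26 libraries. The *B3gnt2* level in T0 was 0.76 to 0.78 in replicates 1 and 2 and 0.23 in replicate 3, above that of the nontargeting sgRNAs. This was not particular to *B3gnt2*. The mean T0 level was at or above 0 for every other member except *Slc35a2* (-0.40), and it was 0.74 for *B3gnt6*. In primary tumour, the level under IgG was 1.45, 1.76 and 1.43 in the 3 libraries, and under anti-PD-1 it was 1.86, 2.25 and 1.93. All 6 were above T0.

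In spleen, *B3gnt2* stood at 1.995, 2.24 and 3.19 under IgG and at 2.32, 3.22 and 3.03 under anti-PD-1. Lung libraries spread more widely, from 1.75 to 3.48 under IgG, with the third at 2.43, and at 1.34, 2.93 and 3.84 under anti-PD-1. In both organs the treatments overlapped and all libraries were above T0.

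The 2 liver libraries under IgG had *B3gnt2* levels of 2.33 and 1.63, and the single liver library under anti-PD-1 had 3.72. In peritoneal metastases the levels were 2.30 and 0.63 under IgG and 1.34, 2.05 and 2.63 under anti-PD-1. The value of 0.63, in replicate 3 of the IgG group, was the only one of the 26 that was not above every T0 library.

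As group means, *B3gnt2* changed against T0 by 0.96 in primary tumour under IgG and 1.42 under anti-PD-1, by 1.88 and 2.26 in spleen, and by 1.97 and 2.11 in lung. The change was 1.39 in liver under IgG and 3.13 in the 1 library under anti-PD-1, and 0.87 and 1.41 in peritoneal metastases. The standard errors ran from 0.60 to 0.84. The mean over the 10 groups was 1.74, and its rank among the 2078 genes lay between 3 and 27 in every group, counted from the largest increase. The median of all genes lay between -0.26 and 0.00 in these groups.

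The 5 sgRNAs against *B3gnt2* did not contribute equally. The mean change over the 10 groups was 2.26 for s_04342, 2.18 for s_04341, 2.07 for s_04344, 1.47 for s_04345 and 0.74 for s_04343. The first 4 were above 0 in all 10 groups, whereas s_04343 was below 0 in 2 of them, liver under IgG (-1.43) and peritoneal metastases under IgG (-0.64). As a scale, 13 of the 250 nontargeting sgRNAs had a mean change above 1, and the central 95% of them lay between -1.51 and 1.11. This is no test of *B3gnt2*, which was chosen by its values against T0. In signal, s_04342 had a mean of 445 in T0 and a median of 1113 over the 26 libraries, while s_04343 had 189 and 233. All 5 *B3gnt2* sgRNAs had a signal above 10 in these libraries, except for 4 of 5 in lung IgG replicate 2, lung anti-PD-1 replicate 1 and liver IgG replicate 3.

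*B3gnt2* had the largest change of the 8 *B3gnt* genes in each of the 10 group means and in 22 of the 26 libraries. The paralogues' group changes ran from -1.60 to 2.36 with a median of -0.23. The largest paralogue change within a group was at most 0.72 except in lung under anti-PD-1 (*B3gntl1*, 1.10) and in the single liver library under anti-PD-1 (*B3gnt4*, 2.36).

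Over the 10 groups, the mean change was -0.31 for *B3gnt3*, which extends core 1 O-glycans, and 0.04 for *B3gnt4*, a further synthase of the family. It was -0.55 for *B3gnt5*, which starts the lacto-series glycolipids, and 0.01 for *B3gnt6*, the core 3 O-glycan synthase. *B3gnt7*, which extends keratan sulfate, had 0.02, and *B3gnt8*, whose product forms a complex with B3GNT2, had -0.37. *B3gntl1*, named for its sequence likeness to the family, had 0.29.

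Some of these means hide sgRNAs that went apart. For *B3gnt5*, s_07566 had a mean change of 1.10 and s_07567 of -2.20. The 5 sgRNAs against *B3gnt4* had means between -0.60 and 0.48, and those against *B3gnt8* between -1.36 and 0.06. No paralogue had more than 1 of its 5 sgRNAs above 1.

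Against T0, 15 members other than *B3gnt2* were tested in the 10 groups outside the lymph nodes, with limma and Benjamini-Hochberg adjustment over all 2078 genes (adjusted p at most 0.05). Of the 150 pairs of a gene and a group, 30 were lower, 2 were higher and 118 passed in neither direction. These are 20% lower and 1.33% higher, against 14.1% and 0.419% of the pairs over all genes. The lower pairs came from *Slc35a2*, *B4galt1* and *B4galt5* in 29 cases, out of 30 possible, and from *B3gnt4* in lung under IgG. The higher pairs were *Slc35a3* in spleen under anti-PD-1 and *B3gnt4* in the single liver library under anti-PD-1.

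By group, 3 members were lower in primary tumour under IgG and under anti-PD-1, where 14.3% and 14.4% of all genes were lower. In spleen the count was also 3 under each treatment, against 13.6% and 14.0% of all genes, and in lung it was 4 under IgG and 3 under anti-PD-1, against 16.2% and 17.2%. In liver it was 3 under IgG and 2 under anti-PD-1, against 13.1% and 9.58%, and in peritoneal metastases 3 under each treatment, against 13.7% and 15.3%. Of all genes, 0.433% were higher in spleen under anti-PD-1 and 0.289% in liver under anti-PD-1, the groups with 1 member each. No member was higher in the other 8 groups. Of all genes, 0 were higher in primary tumour under IgG, 0.144% there under anti-PD-1, 0.289% in spleen under IgG, 1.68% and 0.962% in lung under IgG and anti-PD-1, 0.192% in liver under IgG, and 0.0481% and 0.144% in peritoneal metastases under IgG and anti-PD-1.

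Of the galactosyltransferases, the gene for the general N-glycan enzyme and 1 of the 2 genes for lactosylceramide synthesis fell, and the other 4 did not pass in any group. *B4galt1*, which encodes the enzyme that adds galactose to most N-glycan antennae, had levels of 0.23 to 0.36 in T0 and of -6.02 to -1.60 in the 26 libraries (median -3.69), so that all 26 were below every T0 library. It fell by 4.97 in spleen under IgG (SE 0.77, limma adjusted p = 5.64e-06), the largest of its changes. Its change was -3.67 in primary tumour under IgG (adjusted p = 0.000419) and -3.13 in lung under anti-PD-1 (adjusted p = 0.00205). In the single liver library under anti-PD-1 it was -2.24, which did not pass (adjusted p = 0.324).

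*B4galt5*, which encodes a lactosylceramide synthase at the start of most glycosphingolipids, had levels of 0.52 to 1.08 in T0 and of -4.78 to -1.27 in the 26 libraries (median -2.45). It fell in all 10 groups, with changes from -4.98 in lung under IgG (SE 0.67, adjusted p = 5.68e-07) to -2.55 in peritoneal metastases under IgG (SE 0.75, adjusted p = 0.0142). Again no library overlapped with T0.

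All 5 sgRNAs against *B4galt1* and all 5 against *B4galt5* had a mean change below -1. They ran from -5.33 to -2.23 for *B4galt1* and from -4.58 to -1.72 for *B4galt5*, and 25 of the 250 nontargeting sgRNAs had a mean below -1. For many sgRNAs the deposited table has a lowest value that several libraries of the same replicate number share. It made up 39.2% of the values of the *B4galt1* sgRNAs and 24.6% of those of *B4galt5* in the 26 libraries, against 7.09% for nontargeting sgRNAs, and how far a level falls below it is not known.

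*B4galt6*, the other gene for a lactosylceramide synthase, stood at 0.10 to 0.29 in T0. It had a mean change of 0.48, with 19 of 26 libraries above every T0 library and 3 below. Its 5 sgRNAs all lay between 0.31 and 0.76. It passed in no group, and its smallest adjusted p was 0.121, in lung under anti-PD-1 (change 1.34). The mean changes of *B4galt2* (-0.32), *B4galt3* (0.34) and *B4galt4* (0.30), which encode further LacNAc-forming galactosyltransferases, were smaller still. Their lowest adjusted p-values were 0.781, 0.392 and 0.608.

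Of the 2 transporter genes, *Slc35a2* was lower in all 10 groups and *Slc35a3* was higher in 1. *Slc35a2*, the Golgi transporter of UDP-galactose, had levels of -0.80, -0.48 and 0.09 in T0 and of -6.93 to -3.56 in the 26 libraries (median -5.45). The gene fell in all 10 groups, with changes from -6.28 in peritoneal metastases under IgG (SE 0.69, adjusted p = 1.38e-08) to -3.27 in the liver library under anti-PD-1 (SE 0.87, adjusted p = 0.00917). It was the lowest of the 16 members on average, with a mean change of -4.92, and its 5 sgRNAs lay between -5.70 and -4.32. Of their values, 62.3% were the shared lowest value, so these changes are limited by it.

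*Slc35a3*, a transporter of UDP-GlcNAc, had levels of 0.14, -0.01 and -0.12 in T0. Its mean change was 0.93, and 22 of 26 libraries were above every T0 library while 3 were below. In spleen under anti-PD-1 the levels were 1.78, 2.66 and 2.01, a rise of 2.15 (SE 0.52, adjusted p = 0.00213). In lung under IgG they were 0.36, -0.15 and -1.46, on both sides of T0 (change -0.42, adjusted p = 0.682). Its change in the liver library under anti-PD-1, 2.22, and that in lung under anti-PD-1, 1.44, did not pass (adjusted p = 0.0505 and 0.0507). Of its 5 sgRNAs, 4 had a mean change above 1, from 1.03 to 1.40, and s_08771 had -0.13. Without centring on the nontargeting sgRNAs the mean change of the gene was -0.067, while that of the median gene was -1.14.

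*B3gnt4* passed as lower in 1 group and as higher in 1 group, the latter in a single library, which is assumed to vary like the libraries of other groups. In T0 it stood at 0.46, 0.22 and 0.02, in lung under IgG at -1.53, -0.68 and -1.88, and in the liver library under anti-PD-1 at 2.60. The change was -1.60 in lung under IgG (SE 0.53, adjusted p = 0.0293) and 2.36 in liver under anti-PD-1 (SE 0.75, adjusted p = 0.0367, 1 library). In lung under IgG it no longer passed when only these groups were fitted, over all alternatives its adjusted p ran from 4.17e-06 to 0.295, and over single libraries left out from 0.0125 to 0.114. For liver under anti-PD-1 the call was lost with the replicate number as a block (2.29, adjusted p = 0.0537). There the adjusted p ran from 0.00914 to 0.711 over alternatives and from 0.0265 to 0.106 over single libraries left out. The first range leaves out the fit of only this library and T0, in which all spread is that of T0.

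Of 28 further genes of LacNAc synthesis described for comparison, all were in the library, and 8 were lower and 2 higher in at least 1 of the 10 groups, where 21.3% of all 2078 genes were lower and 2.6% higher by the same count. Among 10 genes that supply UDP-galactose and UDP-GlcNAc, 5 were lower and none was higher. *Ugp2*, which makes UDP-glucose, had a mean change of -4.65 and fell in 9 groups (smallest adjusted p = 2.19e-08).

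Of the hexosamine pathway to UDP-GlcNAc, *Gfpt1*, its first and rate-limiting step, had a mean change of -5.20 and *Pgm3* of -3.93, and both fell in all 10 groups. *Uap1* and *Gnpnat1*, which were named after their values were seen, had -3.41 and -3.04. Genes that act on free galactose had 0.13 (*Galk1*) and 0.07 (*Galt*) and passed in no group.

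Of 11 genes that build the branches on which LacNAc chains stand, 3 were lower and 1 was higher by that count. *Mgat1*, which starts complex N-glycans, had a mean change of -5.39 and fell in all 10 groups (smallest adjusted p = 1.80e-09). *C1galt1c1*, the chaperone of core 1 synthase, fell in 8 groups (mean change -2.88), and *C1galt1*, the synthase itself, in 6 (-1.996). *Mgat2*, the next N-glycan step after *Mgat1* and trimming, rose in 3 groups (mean change 1.18), and *Mgat5*, which makes the branch that B3GNT2 prefers to extend, had a mean change of 0.69 and passed in none. Of 7 genes for sialic acid or fucose caps, *St3gal4* was higher in 1 group and none was lower. *C1galt1*, *Mgat2*, *Mgat5*, *Galk1*, *Galt* and *St3gal4* were also named after their values were seen.

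In the lymph nodes, most sgRNAs were not measured above the lowest value. That value made up 69.1% of the values of the 80 sgRNAs there, 11.5% in the 26 other libraries and 0 in T0, and 71.8%, 11.4% and 0.00940% of the values of all sgRNAs. The spread between lymph node libraries of a group was 1.51. With limma, none of the 15 members passed in any of the 4 groups, where 0 of 2078 genes passed. At an unadjusted p under 0.05 there were 3 members in draining lymph nodes under IgG, 4 there under anti-PD-1, 2 in nondraining lymph nodes under IgG and 0 under anti-PD-1. Of all 2078 genes, 212, 234, 146 and 126 had such a p in these groups, in the same order.

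*B3gnt2* in draining lymph nodes had levels of 4.09, -1.48 and 0.53 under IgG and of 5.54, 0.53 and 4.99 under anti-PD-1. In nondraining lymph nodes they were 1.13, 3.07 and 0.06 under IgG and 2.28, 7.40 and 5.94 under anti-PD-1. Each group spanned several log2 units. These means rest on few sgRNAs: from 0 to 3 of the 5 had a signal above 10 in each of the 6 IgG libraries, and from 1 to 5 in the 6 anti-PD-1 libraries. In nondraining lymph nodes under anti-PD-1, replicate 1 had a signal of 7760 for its highest *B3gnt2* sgRNA and no other above 10, whereas all 5 were above 10 in replicate 3.

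The treatments were compared within the 5 organs outside the lymph nodes, and this contrast does not involve the level in T0. Averaged over organs, 2 of the 15 members other than *B3gnt2* passed, both higher under anti-PD-1, where 0.866% of all genes were higher and 0.481% lower. *B3gnt4* differed by 1.48 (SE 0.27, limma adjusted p = 0.00224) and *Slc35a3* by 1.13 (SE 0.27, adjusted p = 0.0261). The median difference was 0.25 over the 16 members and 0.04 over all genes. The 16 include *B3gnt2*, whose levels under anti-PD-1 were known beforehand, so this median is a description only.

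*B3gnt4* levels in the 13 IgG libraries ran from -1.88 to 0.51 with a median of -0.38, and in the 13 anti-PD-1 libraries from -0.44 to 2.60 with a median of 0.78. The groups overlapped. By organ the difference was 0.53 in primary tumour, 1.02 in spleen, 2.55 in lung, 2.58 in liver and 0.69 in peritoneal metastases.

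*Slc35a3* levels ran from -1.46 to 1.69 under IgG with a median of 0.41, and from 0.47 to 2.66 under anti-PD-1 with a median of 1.10. These too overlapped. By organ the difference was 0.39, 0.92, 1.86, 1.77 and 0.71 in the same order.

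Both calls were lost in fits that did not count organs as independent. Libraries of 1 treatment and replicate number deviated together across organs (r from 0.04 to 0.27 across genes, median 0.17, in 41 pairs of libraries), and the labels do not say whether they share mice. With treatment and number as a random block, the adjusted p was 0.0988 for *B3gnt4* and 0.293 for *Slc35a3*. Primary tumour, spleen and lung were also averaged within each treatment and number, which leaves 3 values against 3. For *B3gnt4* these were 0.42, 0.84 and 1.21 with anti-PD-1, against -0.53, -0.20 and -0.91 with IgG. For *Slc35a3* they were 1.62, 1.69 and 1.32 with anti-PD-1, against 0.49, 0.72 and 0.25 with IgG. The differences of 1.37 and 1.06 did not pass (limma adjusted p = 0.484 and 0.525), where 2 of 2078 genes passed. The unadjusted limma p was 0.00424 and 0.0205, and 166 of 2078 genes had one under 0.05. Both fits left out T0, and the averages also left out liver and peritoneal metastases. Which of these changes cost the calls was not tested. Without lung the adjusted p was 0.132 and 0.261. Over all alternatives it ran from 0.000538 to 0.484 for *B3gnt4* and from 0.00447 to 0.607 for *Slc35a3*.

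Within single organs, lung was the only one with members that passed, *B3gnt4* (adjusted p = 0.00722) and *Slc35a3* (adjusted p = 0.0390), where 1.20% of all genes were higher and 2.36% lower. Fitted on the 6 lung libraries alone, the adjusted p became 0.740 and 0.790, and the number of genes called among all 2078 went from 74 to 1. In primary tumour, spleen, liver and peritoneal metastases 0 of 2078 genes passed, and 0, 0, 3 and 1 members had an unadjusted limma p under 0.05, as had 14, 161, 93 and 107 of all 2078 genes.

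For *B3gnt2* the levels under anti-PD-1 are among the values known when the family was chosen, so its difference by treatment is given with no test. It was 0.66 over organs. By organ it was 0.47 in primary tumour, 0.38 in spleen, 0.15 in lung, 1.74 in liver and 0.54 in peritoneal metastases. Without replicate 3, which leaves out liver, the difference was 0.00. It was 0.96 without replicate 1 and ran from 0.33 to 0.78 over the other alternatives. Of the other B3gnt genes, *B3gnt7* differed by 0.95 (adjusted p = 0.160) and *B3gntl1* by 0.62 (adjusted p = 0.229). *Slc35a2* and *B4galt5*, with levels far below T0 under both treatments, differed by 0.36 and 0.14 (adjusted p = 0.634 and 0.885), and *B4galt1* by 0.70 (adjusted p = 0.395).

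The organs were compared with a moderated F-test over both treatments. None of the 15 members other than *B3gnt2* passed, where 0.433% of all genes did. At an unadjusted limma p under 0.05 there were 5 members, namely *B3gnt4*, *B4galt5*, *B4galt6*, *Slc35a2* and *Slc35a3*, and 162 of all 2078 genes. ComBat had been run between organs before deposit, and its part in these differences was not tested. The *B3gnt2* level was 1.73 in peritoneal metastases, 1.78 in primary tumour, 2.63 in lung, 2.66 in spleen and 2.85 in liver, given with no test. Its libraries ran from 0.63 to 2.63 in peritoneal metastases, from 1.43 to 2.25 in primary tumour, from 1.34 to 3.84 in lung, from 1.995 to 3.22 in spleen and from 1.63 to 3.72 in liver, so that every organ overlapped with every other. *Slc35a3*, with the lowest unadjusted p of the members (0.00680, adjusted p = 0.318), had its highest level in spleen (1.69) and its lowest in peritoneal metastases (0.28). A dependence of the treatment difference on the organ passed for no member. In that interaction test 0 of 2078 genes passed. An unadjusted limma p under 0.05 was found for 2 members, *Slc35a2* and *B3gnt4* (0.0147 and 0.0356), and for 103 of all 2078 genes.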

How the data were processed

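Reads were assigned to sgRNAs by the authors with MAGeCK-VISPR and scaled by the nontargeting controls, after which ComBat removed organ batches, with settings not given in the sources used here. The deposited signal is therefore no whole count, its read depth is unknown, and no count test, counting interval or detection floor was used. A gene's level was the average of log2(signal + 1) over its 5 sgRNAs, less the mean of the 250 nontargeting sgRNAs. The mean was used because the median lies at the lowest values in lymph nodes. With limma 3.58.1 in R 4.3.3, 1 mean per group was fitted to T0 and the 10 groups outside the lymph nodes (29 libraries, prior degrees of freedom 15.5), and separately to T0 and the 4 lymph node groups (15 libraries, 18.2). The groups came from the sample titles. Contrasts were each group against T0, anti-PD-1 minus IgG, and organs by a moderated F-test, two-sided, with Benjamini-Hochberg adjustment over 2078 genes. The scripts were tested on simulated data.

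No 2 libraries were alike (highest r 0.843). Which mice make up a replicate is not stated, so p-values measure the spread between these libraries. The comparisons with T0 share its 3 libraries. Outside the lymph nodes, same-numbered libraries of the same organ under the 2 treatments correlated at -0.11 to -0.01 in their deviations from group means. These values were taken after the authors' ComBat step, and whether the numbers pair the treatments was not tested.

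The members and lists were chosen with earlier results of these data known. All members were to be named, and of the pathway genes up to 6 with the smallest adjusted p, of which 1 is not reported here. Alternatives were log2(signal + 10), the median of the sgRNAs, other centrings, leaving out the lowest 10% of sgRNAs, the fits' samples, the replicate number as a block, and each library left out. After seeing the values, 6 kinds were added: lung left out, 1 library with a differing tissue label left out, shared lowest values set to 0, the random block, averages over organs, and lung alone. Coordinates come from an exact match of the printed guides to GRCm38.p6. The sgRNA sequences of the measured library were not used here.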

Additional observations from a re-analysis of the deposited data

Results flagged for a closer look

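For *B3gntl1*, the liver IgG libraries (1.80 and 0.68) were all above every T0 library (0.50 to 0.57) and the peritoneal metastases IgG libraries (-0.04 and -0.58) all below, a difference of 1.55 between the means of 2 libraries each. In the limma fit across all genes this contrast did not pass (SE 0.62, unadjusted p = 0.0179, Benjamini-Hochberg adjusted p = 0.999).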

How the results depend on the processing

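The 30 lower pairs against T0 numbered 15 with the median of the sgRNAs and 0 with the lowest 10% of sgRNAs left out, a filter that left 0, 2 and 2 of the 5 sgRNAs of *Slc35a2*, *B4galt1* and *B4galt5*. That filter ranks sgRNAs by their signal over all libraries, those after transfer included. It thus takes out sgRNAs because they fell, and its count of lower pairs cannot serve as a check. The lower pairs numbered 33 with only the groups compared, 34 with the nontargeting median, 45 with the values as deposited, and 27 to 31 without single libraries. The 2 higher pairs became 4 with log2(signal + 10), 4 with the median of the sgRNAs, 1 with the nontargeting median, 0 with the values as deposited, 1 with the lowest 10% left out, 0 with all 41 libraries in 1 fit, 8 with only the groups compared, 1 with shared lowest values set to 0, and 1 to 5 without single libraries (1 without any single T0 library, 4 without any single lung IgG library or the second anti-PD-1 library of lung or spleen, and 5 without the third anti-PD-1 library of lung). With only the groups compared, the single liver library under anti-PD-1 is set against the spread of T0 alone. The share of all gene and group pairs is not given beside these counts of lower and higher pairs. They show only how the calls moved with the setting, and are no result about the members. In lymph nodes, 60 pairs were called with the values as deposited, where 98.1% of all gene and group pairs were, and 1 with all libraries in 1 fit.

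The 2 members called by treatment became 0 with the median of the sgRNAs (*B3gnt4* 1.25, *Slc35a3* 1.45) and with all libraries in 1 fit (1.48 and 1.13). They also became 0 without lung (1.21 and 0.95), with the random block (1.46 and 1.14) and with the averages (1.37 and 1.06). With the values as deposited and without liver, 1 was called, *B3gnt4* (1.44 and 1.20), while *Slc35a3* did not pass (1.10 and 0.97). Over the fits without a replicate number or without replicate 2 of peritoneal metastases under anti-PD-1, the count ran from 0 to 2. In these fits the *B3gnt4* difference ran from 1.08 to 1.64 and that of *Slc35a3* from 0.90 to 1.22. By replicate number, the count was 1 without replicate 1 or 2 and 0 without replicate 3. Members that differed between organs went from 0 to 3 with the nontargeting median, 4 with the values as deposited and 3 with the median of all sgRNAs. The share of all genes is not given beside the counts of this paragraph. They show only how the calls moved with the setting, and are no result about the members.

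Centring moved the median gene's mean change from -0.14 to -0.55 (nontargeting median), -1.14 (as deposited) and -0.17 (median of all sgRNAs). As deposited, the mean changes of *B3gnt4* (-0.96), *Slc35a3* (-0.067) and *St3gal4* (-0.52) turned, while *B3gnt2* kept its direction at 0.74. *B3gnt4*, near 0, also turned with the nontargeting median (-0.37), without T0 replicate 3 (-0.067), and without replicate 3 of peritoneal metastases IgG (-0.00802) or liver IgG (-0.00901), and ran from -0.067 to 0.15 over single libraries left out. *Gnpnat1* turned with the lowest 10% left out (0.16), a filter that uses the values after transfer. In lymph nodes, *B3gnt2* (-3.08) and *Slc35a3* (-3.42) turned as deposited, *Slc35a2* and *B4galt1* with the nontargeting median (0.26 and 0.21) and the median of all sgRNAs (0.32 and 0.28). The cause was not tested.

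With the replicate number as a block, the counts stayed at 30, 2, 0, 2 and 0, while 1 higher call was lost, *B3gnt4* in liver under anti-PD-1 (2.29, adjusted p = 0.0537), and 1 was gained for *Slc35a3*. Within a treatment, 21 of 21 libraries correlated best with their own number, and 14 of 21 did over both treatments. The study took the organs from the same mice and sequenced in independent runs, but does not tie the replicate numbers to either. Leaving out the only liver anti-PD-1 library could not be run. Depth is unknown, and the lowest values limit the size of decreases.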
